A study of Mus musculus with 34 samples.

Results

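Leng8, Rsrp1 and 8 further genes whose transcripts are known for retained introns were followed across 3 brain regions of Myt1l heterozygous and wild-type mice. The 10 genes, out of 18548 in the expression table, were Leng8, Rsrp1, Wsb1, Ppox, the kinases Clk1 and Clk4, the cyclins Ccnl1 and Ccnl2, and the U1 factors Luc7l2 and Luc7l3. They were taken by GENCODE M21 symbol, and all 10 were found and passed the filter on low values. Leng8, Rsrp1, Wsb1 and Ppox were taken because they were higher in the heterozygotes in these same libraries, so their genotype differences are given here as a description that supports nothing, beside counts over all genes. RNA sequencing covered 34 libraries of total RNA. The mice were C57BL/6J males aged 56 postnatal days, and no treatment is named. Prefrontal cortex (PFC) had 5 libraries labelled heterozygote (HT) and 6 labelled wild type (WT), hippocampus 5 and 6, and striatum 6 and 6. How Myt1l was altered is not in the labels. Nor is it stated there that each library is another animal, so p-values measure the spread between these libraries only.

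Some polyadenylated transcripts keep an intron after the others have been spliced out and stay in the nucleus, where the last intron can be removed later or the RNA decays. The CLK kinases, which phosphorylate the serine and arginine rich (SR) splicing proteins, and the genes for several splicing factors make such transcripts in many tissues, the brain included. The table gives 1 value per gene, summed over its transcripts, and holds no measure of an intron or of the nucleus, so whether any of these RNAs was retained or nuclear in these samples was not measured. Values are normalized counts, meaning read counts scaled by the authors to make libraries comparable. They are not scaled for gene length, so levels are compared between samples and not between genes.

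In GENCODE M21, 10 of the 10 genes have at least 1 transcript annotated as holding a retained intron, against 54.6% of the 15399 protein-coding genes in the table. Several were chosen because they are known for retained introns, so nothing is read from this difference. Ccnl1 has 8 such transcripts, Clk1 and Clk4 have 7 each and Ppox has 5; at least 4 are annotated for 11.3% of protein-coding genes. Retained introns that lie between coding exons could be placed in 7 of the genes, 24 introns in all. Their median length was 333.5 bases and their median GC content 42.1%, against 262 bases and 51.4% for the 7478 such introns of all protein-coding genes in the table. The 5′ splice sites matched the consensus CAGGTAAGT at a mean of 6.00 of 9 positions in these genes and 6.11 in all. The boundaries of 5 of the introns are shown because they are the annotated form of the feature that groups these genes. Each line has the last 10 exon bases and the first 20 intron bases on the gene's own strand from GENCODE M21, with the GT that opens the intron in capitals. On GRCm38 the introns lie at chr11:51273169-51273559 on the plus strand (Clk4), chr1:58419734-58420120 on the minus strand (Clk1), chr3:65950545-65951433 on the minus strand (Ccnl1), chr7:4142639-4142833 on the plus strand (Leng8) and chr4:134925433-134926734 on the plus strand (Rsrp1).
Clk4: agagcaagatGTatagaatatttttcaaca
Clk1: agtgcaagatGTatagaatatttttcaaca
Ccnl1: tccccataagGTgagttgtaaagtacagac
Leng8: agaaccgcagGTgactgttaccctgacccg
Rsrp1: aaaggtggagGTaagtgccttcaggaagct
The Clk4 and Clk1 boundaries were the same at 20 of 20 intron bases and 9 of 10 exon bases. Outside Clk1 and Clk4 pairs, the closest match among the 234 pairs of introns from different genes was 13 of 20 intron bases. The 2 introns are of like length, 391 bases in Clk4 and 387 in Clk1, and their site matched the consensus at 4 of 9 positions. The Ccnl1, Leng8 and Rsrp1 sites shown matched it at 7, 7 and 8. Other placed introns matched it at 5 to 7 positions in Clk4, 5 and 6 in Clk1, 6 to 8 in Ccnl1 and 5 or 6 in Leng8. The sites shown therefore do not stand for all introns of their genes. The 4 placed introns of Leng8 were rich in GC (51.5% to 58.5%), and the 3 of Clk1 poor in it (26.4% to 32.95%).

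RefSeq promoters, from 250 bases before to 50 after the annotated start on GRCm38.p6, were found for 9 of the 10 genes. They were searched on both strands for 9 motifs: CCGGAAG (ETS core), TGACGT (the core of the cAMP response element), GGGCGG (GC box), the NRF1 palindrome, AAGATGGC (YY1), AAAGTT (MYT1L), CCAAT (the CCAAT box), CACGTG (E box) and GAANNTTC (heat shock element). TGACGT was found for 6 genes, Ccnl1, Ccnl2, Clk4, Leng8, Rsrp1 and Wsb1, whereas 7.51% of 32851 promoters and 13.2% of the 8701 promoters with at least 20 CpG hold it. The whole palindrome TGACGTCA, which contains the core on both strands, was found for 3 genes (Ccnl1, Clk4 and Wsb1), in 1.79% of promoters and in 3.84% of those with at least 20 CpG. GGGCGG stood in 9 of the 11 windows of these genes against 35.7% of promoters, and CCAAT in 6 against 37.4%. AAAGTT stood in 1, that of Ppox, against 14.1% of promoters. The windows of these genes were richer in CpG (median 29 against 7 for all promoters) and in GC (61.3% against 52.7%). Of the 11 windows, 8 had at least 20 CpG. For GGGCGG no share among promoters with at least 20 CpG was counted, so nothing is read from its difference. The 3 stretches below, each from 90 to 11 bases before the RefSeq start, are printed because they hold the palindrome or, for Leng8, the core at 2 places, in capitals. They lie at chr11:51263024-51263103 on the plus strand (Clk4), chr11:79254706-79254785 on the minus strand (Wsb1) and chr7:4136966-4137045 on the plus strand (Leng8).
Clk4: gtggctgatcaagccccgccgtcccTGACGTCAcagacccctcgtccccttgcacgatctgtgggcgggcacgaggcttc
Wsb1: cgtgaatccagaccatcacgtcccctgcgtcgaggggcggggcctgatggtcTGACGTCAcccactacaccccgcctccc
Leng8: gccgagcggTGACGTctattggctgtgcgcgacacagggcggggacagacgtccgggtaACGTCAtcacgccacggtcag
A match is a description of these letters; binding of any factor was not measured.

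Across the whole series, the normalized counts summed to 25786041 to 29798959 per library, and 24019000 to 39363000 reads per library were estimated from the steps between low values. Sums were highest in PFC (29092563 to 29798959) and lowest in striatum (25786041 to 27313394). Myt1l RNA, the targeted gene, was not lower in the libraries labelled HT. Its levels were 6820 ± 456 (SD, n = 5) in PFC HT against 6650 ± 842 (SD, n = 6) in WT, 6896 ± 385 against 6216 ± 594 in hippocampus and 8162 ± 954 against 7675 ± 552 in striatum. With the allele not described, this level does not check the genotype labels. Column names carry 12 codes, and 1 code, 31-67M, stands on PFC WT replicate 6 and on HT replicate 1 of hippocampus and of striatum; the labels were followed. The summed markers of cortical, hippocampal and striatal projection neurons were each highest in the libraries of their own region, though single markers were not always: 2 of 8 cortical markers lay above 0 in WT hippocampus against PFC, and 1 of 9 hippocampal markers was higher in striatum than in hippocampus. Libraries of hippocampus and striatum also held choroid plexus RNA, with 9 markers summing to 1951 to 90544 normalized counts against 214 to 307 in PFC.

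The first question was how the levels differ between regions, which the choice of genes did not use. It was tested within the 18 WT libraries and again within the 16 HT libraries with limma on log2(value + 1). P-values were adjusted by Benjamini-Hochberg across the whole table, and the threshold was 0.05. In WT hippocampus, 7 of the 10 genes were higher than in WT PFC and Rsrp1 was lower; 46.3% of all 17017 genes tested differed, 23.6% higher and 22.7% lower. In WT striatum, 5 were higher than in PFC and 2 lower, where 56.6% of all genes differed (29.0% higher, 27.7% lower). Striatum against hippocampus gave 1 gene higher and 6 lower, with 47.5% of all genes differing (23.9% higher, 23.6% lower). The median log2 difference over the 10 genes was 0.20, 0.08 and -0.11 in the 3 comparisons, beside 0.01 for all genes in each. In bulk tissue, fewer cells of a type and less RNA per cell cannot be told apart.

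**Figure D1:**
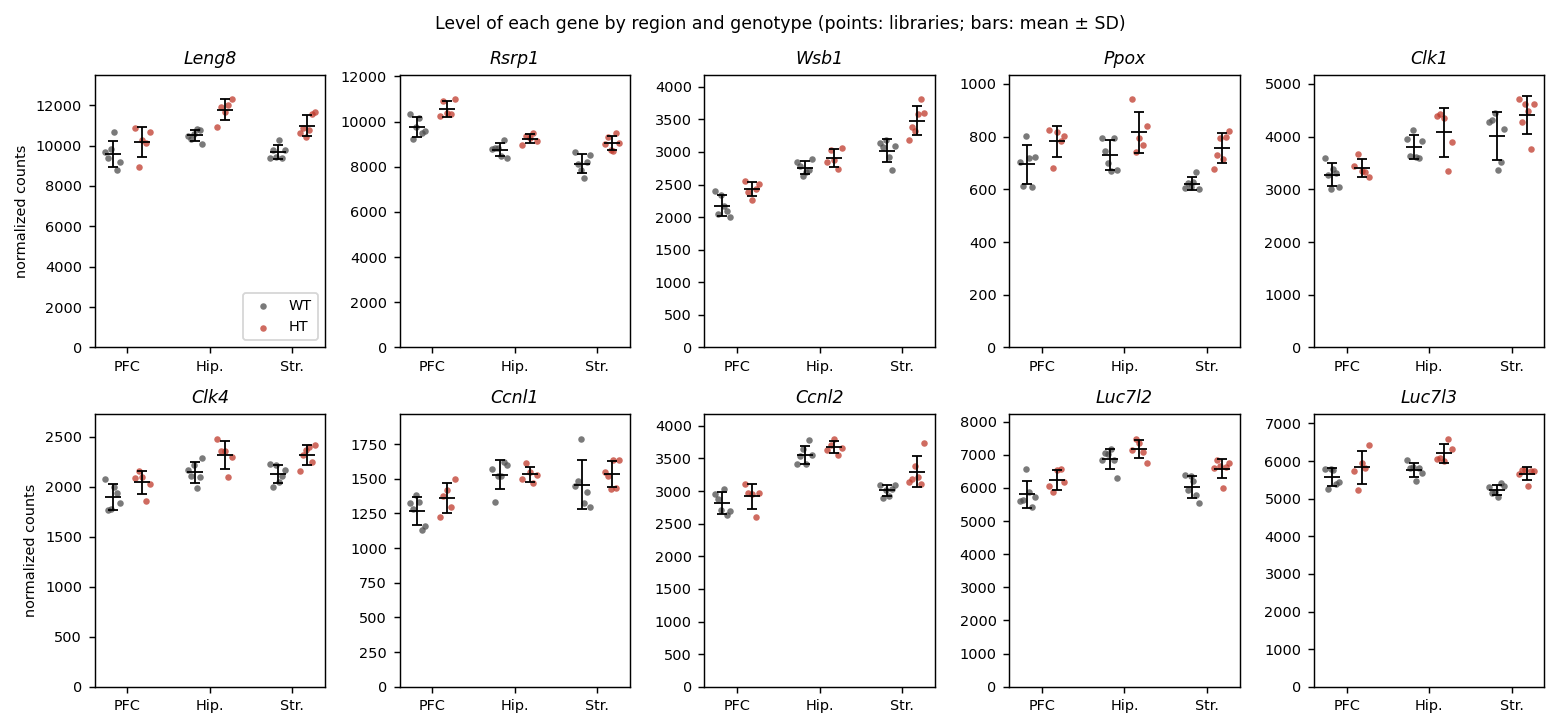
Normalized counts of the 10 genes (vertical axes, from 0) in each library, by region and genotype. Points are libraries (WT grey, HT red) and bars are the mean ± SD of each group; Wsb1 has its lowest group mean in PFC WT (2174) and its highest in striatum HT (3480), and Rsrp1 runs the other way, from 10569 in PFC HT to 8141 in striatum WT.

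Clk1 and Clk4 were higher in hippocampus and in striatum than in PFC. Clk1, which phosphorylates SR proteins, lay between 3011 and 3592 in WT PFC (median 3298), between 3589 and 4136 in WT hippocampus (median 3779) and between 3365 and 4444 in WT striatum (median 4216). Clk1 ranges of PFC and hippocampus touched only at their edge, and the striatum libraries were the most spread. Its log2 difference was 0.22 (SE 0.06, limma adjusted p = 0.00787) for hippocampus and 0.29 (SE 0.06, adjusted p = 6.1e-04) for striatum against PFC. Clk4, a kinase of the same family, had medians of 1886, 2134 and 2138 in WT PFC, hippocampus and striatum. The Clk4 differences were 0.18 (SE 0.05, limma adjusted p = 0.00355) and 0.17 (SE 0.05, adjusted p = 0.00434). Hippocampus and striatum were not told apart by the test for either kinase: the 95% interval of the difference ran from -0.06 to 0.20 for Clk1 and from -0.11 to 0.09 for Clk4. Clk1 and Clk4 share 36 31-base words, 0.432% and 0.595% of theirs, so reads could rarely be split between them.

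Of 7 further genes of CLK, SRPK and neighbouring kinases, 0 were higher and 3 were lower in WT hippocampus than in PFC, and 0 and 4 in striatum. Of all genes, 23.6% were higher and 22.7% lower in hippocampus, and 29.0% and 27.7% in striatum. The numbers of kinases called are near the shares of all genes called (46.3% and 56.6%), so nothing is read from them. Srpk2 was 0.41 lower (log2, -0.41, SE 0.03, limma adjusted p = 4.5e-10) and Srpk1 0.35 lower (-0.35, SE 0.09, adjusted p = 0.0023) in hippocampus. Of the SR protein genes, whose products these kinases act on, 10 of 13 were higher in hippocampus and 9 of 13 in striatum, with 0 lower in either. Srsf7 (0.36, SE 0.03, limma adjusted p = 8.8e-09) and Tra2b (0.33, SE 0.04, adjusted p = 7.6e-07) were higher in striatum than in PFC.

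The cyclins L1 and L2, which pair with CDK11 kinases and sit in nuclear speckles, had their highest WT levels in hippocampus. Ccnl2 lay between 2626 and 3031 in WT PFC, 3409 and 3775 in hippocampus and 2888 and 3099 in striatum. Every hippocampal library was above every library of the other regions. The Ccnl2 difference was 0.34 (SE 0.04, limma adjusted p = 3.1e-07) for hippocampus against PFC and -0.24 (SE 0.04, adjusted p = 3.0e-05) for striatum against hippocampus. The smaller rise of Ccnl2 in striatum over PFC (0.10, SE 0.04, limma adjusted p = 0.041) was lost without any 1 of PFC replicates 3, 5 and 6 or striatum replicates 1, 3, 5 and 6, with adjusted p up to 0.108. Ccnl1 was 0.27 (SE 0.07, limma adjusted p = 0.00303) higher in hippocampus and 0.20 (SE 0.07, adjusted p = 0.0206) higher in striatum than in PFC. The striatal difference of Ccnl1 was lost without PFC replicate 5 or 6 or striatum replicate 3 (log2 0.16, 0.17 and 0.14; limma adjusted p = 0.0573, 0.051 and 0.0639). Ccnl1 did not pass between striatum and hippocampus (95% interval -0.22 to 0.07). Ccnl1 and Ccnl2 share 0 31-base words. Among 7 kinases and cyclins of the same families, 2 were higher and 1 lower in hippocampus, and 1 higher and 2 lower in striatum. Of all genes, 46.3% and 56.6% differed in these comparisons with PFC.

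The LUC7 proteins bind the U1 particle, which recognises 5′ splice sites. Luc7l2 was higher in WT hippocampus than in PFC by 0.25 (SE 0.05, limma adjusted p = 1.3e-04) and lower in striatum than in hippocampus by -0.19 (SE 0.05, adjusted p = 0.00176). Luc7l3 was lower in striatum than in hippocampus by -0.14 (SE 0.03, limma adjusted p = 0.00148), and its libraries did not overlap between these regions. Its difference between striatum and PFC was -0.09 (SE 0.03, limma adjusted p = 0.0289). The last call was lost in 6 of 18 fits that each left out 1 WT library (PFC replicates 1, 3 and 4, striatum replicates 2, 3 and 4), with adjusted p up to 0.0688, and turned to 0.05 when all libraries were set to equal totals. Luc7l, the third LUC7 gene, rose by 0.26 (SE 0.04, limma adjusted p = 5.9e-06) in hippocampus over PFC. With it 2 of 6 genes of U1 and its partners were higher there, 0 lower, where 23.6% of all genes were higher and 22.7% lower.

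Leng8 encodes a nuclear protein with a domain of the Sac3 family, whose members act in mRNA export. In WT it lay between 8785 and 10656 in PFC (median 9537), 10072 and 10821 in hippocampus (median 10527) and 9384 and 10283 in striatum (median 9603). Hippocampus was highest, though its range overlapped both others. The difference was 0.13 (SE 0.04, limma adjusted p = 0.00782) against PFC and -0.12 (SE 0.04, adjusted p = 0.016) for striatum against hippocampus. PFC and striatum were not told apart (Leng8 log2 0.01, 95% interval -0.07 to 0.10). Rsrp1, a little studied protein rich in arginine and serine, was highest in PFC. It lay between 9237 and 10357 in WT PFC (median 9667), 8390 and 9174 in hippocampus (median 8800) and 7520 and 8650 in striatum (median 8170). PFC libraries were all above those of the other regions. The Rsrp1 difference was -0.16 (SE 0.04, limma adjusted p = 0.00154) for hippocampus and -0.26 (SE 0.04, adjusted p = 3.3e-06) for striatum against PFC. Between striatum and hippocampus Rsrp1 differed by -0.10 (SE 0.04, limma adjusted p = 0.0265), a call lost without hippocampus replicate 5 or striatum replicate 3 or 4 (adjusted p = 0.0681, 0.0601 and 0.0771).

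Wsb1, the substrate receptor of a ubiquitin ligase with a SOCS box, had the largest difference of the 10 between striatum and PFC. It lay between 1999 and 2396 in WT PFC, 2631 and 2895 in hippocampus and 2715 and 3183 in striatum. No PFC library reached the lowest library of the other regions. Its difference was 0.34 (SE 0.05, limma adjusted p = 3.2e-06) for hippocampus and 0.48 (SE 0.05, adjusted p = 1.7e-08) for striatum against PFC. Wsb1 was 0.13 (SE 0.05, limma adjusted p = 0.0296) higher in striatum than in hippocampus, a call lost in 7 of 18 fits without 1 library (hippocampus replicates 3, 4 and 5, striatum replicates 1, 2, 3 and 6; adjusted p up to 0.0693). Wsb2, its relative in the same ligase family, went the other way in striatum against PFC (-0.86, SE 0.06, limma adjusted p = 1.4e-10). Ppox, the enzyme before the last step of heme synthesis, lay between 607 and 803 in WT PFC, 668 and 796 in hippocampus and 600 and 666 in striatum. Only striatum against hippocampus passed for Ppox (-0.23, SE 0.07, limma adjusted p = 0.00764), and these groups did not overlap. Against PFC the Ppox interval ran from -0.07 to 0.21 for hippocampus and from -0.29 to -0.01 for striatum (limma adjusted p = 0.392 and 0.0567); the second passed without PFC replicate 2 or 5 or striatum replicate 5, at -0.19, -0.19 and -0.17. Of 8 other heme synthesis genes, 2 were higher in hippocampus (23.6% of all genes) and 2 lower in striatum (27.7%) than in PFC. The WT ranges of 2 regions did not overlap for Rsrp1, Wsb1 and Ccnl2 in hippocampus against PFC (29.0% of all genes), for Rsrp1 and Wsb1 in striatum against PFC (35.8%), and for Ppox, Ccnl2 and Luc7l3 in striatum against hippocampus (29.8%).

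**Figure D2:**
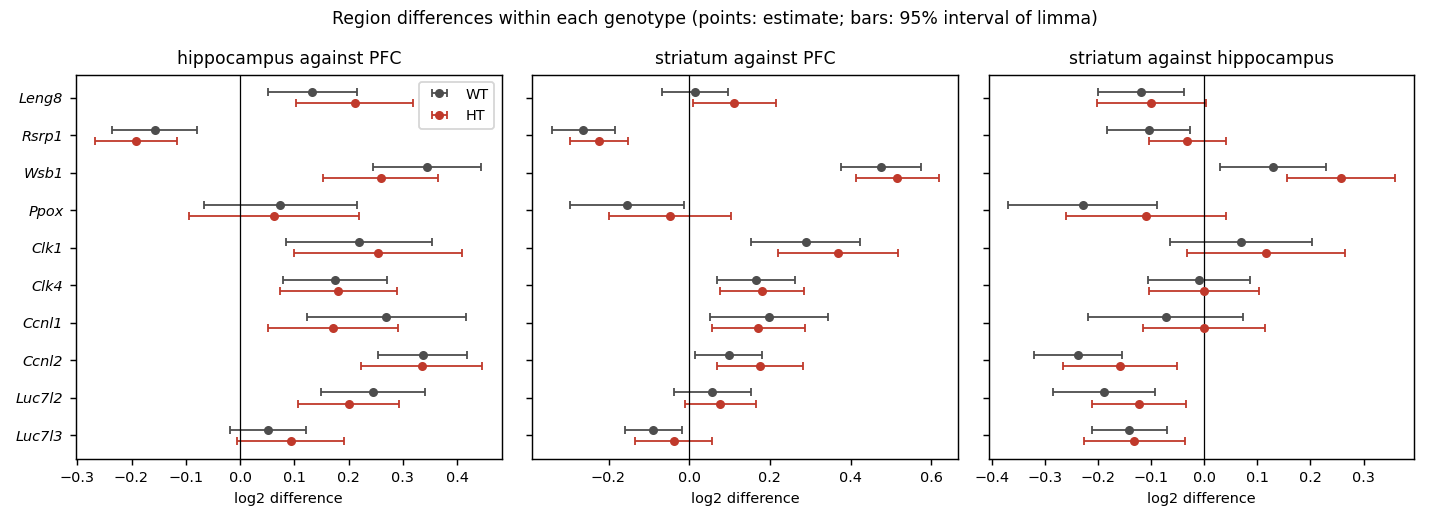
Log2 differences between regions of the 10 genes within WT (grey) and within HT (red). The horizontal axes are log2 differences, points are limma estimates, bars are 95% intervals and the vertical line is 0; in hippocampus against PFC 7 genes lie to the right and Rsrp1 to the left of 0 with their whole interval in both genotypes.

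In HT, 7 genes were higher and 1 lower in hippocampus than in PFC (42.6% of 17080 genes differed, 21.9% higher and 20.7% lower). Striatum against PFC gave 5 higher and 1 lower (54.9%; 28.1% higher, 26.9% lower), and striatum against hippocampus 1 higher and 3 lower (45.3%; 22.6% higher, 22.7% lower). With equal totals the last 2 comparisons gave 8 higher and 0 lower, and 2 higher and 0 lower. Without striatum HT replicate 4, 1 of the 3 lower genes in striatum against hippocampus passed, with Luc7l2 at -0.10 and Luc7l3 at -0.11 (limma adjusted p = 0.0585 and 0.0546), and without any 1 of hippocampus HT replicates 2 to 5, 2 passed. Of the 22 region differences that passed in WT, 18 passed in the same direction in HT, 4 did not pass, and 0 passed in HT alone. Wsb1 in HT was 0.26 (SE 0.05) higher in hippocampus and 0.52 (SE 0.05) higher in striatum than in PFC (limma adjusted p = 3.7e-04 and 3.1e-08). The 4 that did not pass in HT were Luc7l3 in striatum against PFC (-0.04), and Leng8 (-0.10), Rsrp1 (-0.03) and Ppox (-0.11) in striatum against hippocampus. Whether region differences depend on genotype was tested as an interaction, chosen after the data were seen. It called 0 of 17051 genes (0.00%) in each pair of regions by limma, with 701, 670 and 690 genes at an unadjusted p under 0.05.

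Other cell types and scaling moved with region. All 10 oligodendrocyte markers were higher in WT hippocampus (median log2 0.39) and striatum (1.05) than in PFC, with sums of 89762 to 141439 normalized counts in WT PFC, 149479 to 195314 in hippocampus and 225399 to 274235 in striatum. The 8 neuron markers summed to 203888 to 229881, 162073 to 171861 and 117003 to 136297, and all 14 immediate early genes were lower in striatum than in PFC. No marker was at 0 in a whole group, and the part of these cell types in the differences above was not tested. Setting all libraries to equal totals instead of the authors' scaling took the median of all genes from 0.01 to 0.10, 0.15 and 0.06 in the 3 WT comparisons, and the share of called genes that were higher from 51.0% to 66.8%, 51.2% to 69.8% and 50.3% to 59.7%. On that scale 9 of the 10 genes were higher in WT hippocampus than in PFC and 7 in striatum, Rsrp1 was lower only in striatum (-0.12, limma adjusted p = 0.0101; hippocampus -0.07, adjusted p = 0.15), and striatum against hippocampus had 1 higher and 4 lower. Among the 4 libraries a region of WT whose codes begin with 35, 3 genes passed as higher and 1 as lower in hippocampus against PFC, 2 and 2 in striatum against PFC, and 0 and 5 in striatum against hippocampus.

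The second question was the level in HT against WT within each region, the difference by which Leng8, Rsrp1, Wsb1 and Ppox were chosen. The mean log2 level was higher in HT than in WT for 10 of the 10 genes in each region, and 0 were called. By limma 0 of 16667 genes were called in PFC, 0 of 16820 in hippocampus and 0 of 17054 in striatum (0.00% in each), with 833, 1145 and 1004 at an unadjusted p under 0.05. Of all genes, 48.7%, 49.4% and 48.4% were above 0 in PFC, hippocampus and striatum, and 16.3% of 17051 were above 0 in all 3. The median difference over the 10 genes was 0.10 in PFC, 0.09 in hippocampus and 0.13 in striatum, beside a median near 0 for all genes. The 10 genes were chosen partly by this contrast, so nothing is read from these shares.

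Leng8 in PFC HT stood at 10882, 8938, 10292, 10120 and 10675, against 8785 to 10656 in WT (median 9537). In hippocampus its HT values were 10938, 11926, 11657, 12026 and 12287, all above the highest WT value of 10821. In striatum they ran from 10432 to 11659 (median 10814), all above the highest WT value of 10283. The Leng8 groups overlapped in PFC only, where HT replicate 2 was close to the lowest WT library. The Leng8 difference on the log2 scale was 0.09 (SE 0.05), 0.16 (SE 0.03) and 0.18 (SE 0.04) in PFC, hippocampus and striatum. Leng9, which overlaps Leng8 on the other strand and shares 3.52% of its 31-base words, was at 123 ± 13.3 in HT and 127 ± 15.2 in WT (SD, n = 6 each) in striatum.

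Rsrp1 in PFC HT stood at 10233, 10933, 10366, 10327 and 10986, against 9237 to 10357 in WT (median 9667), and 3 of the 5 were above all WT libraries. In hippocampus the HT values were 8982, 9382, 9274, 9493 and 9129 against 8390 to 9174, again with 3 above all WT. Striatum HT ran from 8704 to 9498 (median 9031) and WT from 7520 to 8650 (median 8170), without overlap. The Rsrp1 log2 differences were 0.12 (SE 0.04), 0.08 (SE 0.03) and 0.15 (SE 0.04). Wsb1 overlapped between genotypes in PFC, with HT values of 2553, 2386, 2267, 2433 and 2514 against 1999 to 2396 in WT. It also overlapped in hippocampus, with 2848, 3037, 2873, 2735 and 3053 against 2631 to 2895. In striatum every Wsb1 value of HT (3185 to 3807, median 3486) was above WT (2715 to 3183, median 3080), the nearest libraries being about level. The Wsb1 log2 differences were 0.16 (SE 0.05), 0.08 (SE 0.04) and 0.20 (SE 0.05).

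Ppox in PFC HT stood at 826, 680, 817, 783 and 800, with WT from 607 to 803 (median 712). In hippocampus the Ppox values of HT were 941, 742, 795, 767 and 839 and those of WT 668 to 796 (median 724). In striatum HT ran from 675 to 821 (median 763) and WT from 600 to 666 (median 616), so only striatum was without overlap. The Ppox log2 differences, 0.17 (SE 0.08), 0.16 (SE 0.07) and 0.28 (SE 0.06), had the widest errors of these 4 genes. Ppox shares 16.2% of its 31-base words with B4galt3, which runs across it on the other strand, and the library kit does not mark strand, so reads of the overlap could be counted for either gene. B4galt3 was at 893 ± 103 in HT and 907 ± 136 in WT (SD, n = 6 each) in striatum, 951 ± 55.6 and 950 ± 102 in hippocampus and 870 ± 84.9 and 865 ± 70.3 in PFC.

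For the splicing genes the differences averaged over regions ran from 0.06 (Ccnl1) to 0.11 (Clk4). Those of the 4 genes chosen by this contrast were larger, from 0.12 (Rsrp1) to 0.20 (Ppox). Clk4, at 0.11, 0.11 and 0.12, was the most even across regions; in striatum 5 of 6 HT libraries were above all WT libraries. Clk1 was at 0.06, 0.09 and 0.14, with wide spread in hippocampus, where HT ran from 3342 to 4429. Ccnl1 was at 0.10, 0.01 and 0.08 with overlap everywhere, and Ccnl2 at 0.05, 0.05 and 0.13. Ccnl2 libraries did not overlap in striatum, HT from 3107 to 3740 and WT from 2888 to 3099. Luc7l2 was at 0.11, 0.06 and 0.13 and Luc7l3 at 0.06, 0.10 and 0.11. In all, every HT library was above every WT library for 0 of the 10 genes in PFC, for Leng8 in hippocampus, and for Leng8, Rsrp1, Wsb1, Ppox and Ccnl2 in striatum. Of all genes tested, 0.198%, 0.321% and 0.141% did so. Every HT library was above the WT mean for 3 of the 10 genes in PFC, 5 in hippocampus and 7 in striatum, against 5.44%, 5.46% and 4.00% of all genes. Leng8, Rsrp1, Wsb1 and Ppox were chosen by this contrast, so nothing is read from these shares. Among the other genes only Ccnl2, in striatum, had every HT library above every WT library.

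**Figure D3:**
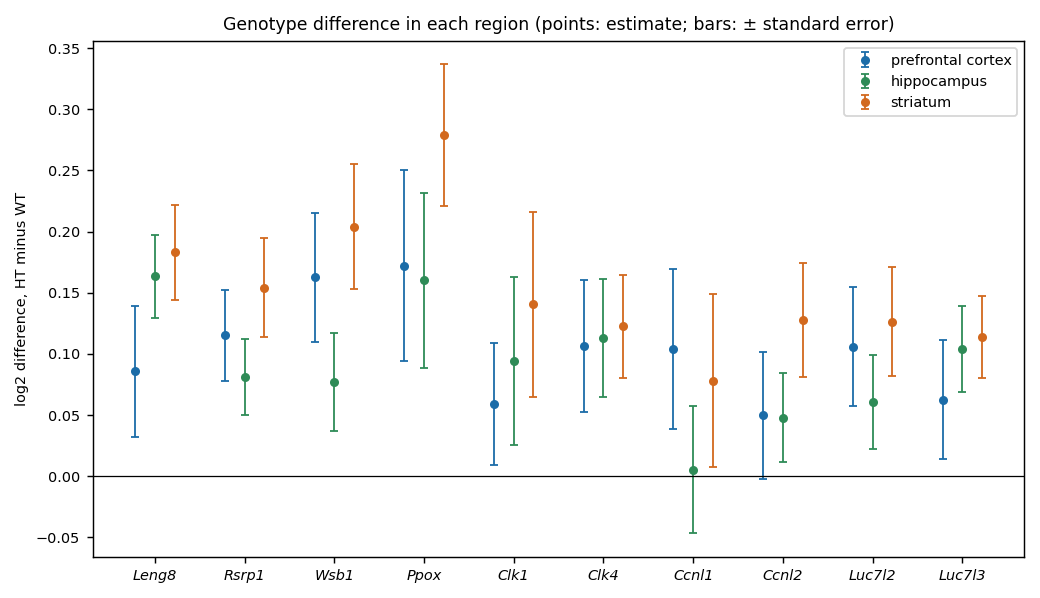
Log2 difference of HT minus WT for each gene in PFC, hippocampus and striatum (colours). Points are limma estimates with bars of ± 1 standard error; every point lies above 0, from 0.01 for Ccnl1 in hippocampus to 0.28 for Ppox in striatum.

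Libraries whose codes begin with 35 (4 and 4 in PFC, 3 and 4 in hippocampus, 4 and 4 in striatum, HT and WT) gave smaller differences in PFC, with a median over the 10 genes of 0.07, and like ones in hippocampus (0.09) and striatum (0.15). Within these codes Leng8 was at 0.02 in PFC and at 0.16 and 0.17 in the other regions, and Ppox at 0.08 in hippocampus. Ccnl1 was at -0.003, 0.04 and 0.01. The groups with codes beginning 31 or 37 hold at most 1 library of each kind per region and gave no value of their own. Without code 31-67M, Leng8 stood at 0.07, 0.19 and 0.19 and Ppox at 0.18, 0.11 and 0.31 in PFC, hippocampus and striatum. Averaged over regions, with the code as a random block, 16 of 17051 genes were called by limma (0.0938%), 8 higher and 8 lower (0.0469% each). The averaged differences were 0.14 (SE 0.03) for Leng8, 0.12 (SE 0.02) for Rsrp1, 0.15 (SE 0.03) for Wsb1 and 0.20 (SE 0.04) for Ppox. These 4, which were chosen for this difference, are among the 16, and 0 of the other 6 genes are. In 42 alternative fits Leng8 and Rsrp1 were past the threshold in 41 each, Wsb1 in 34 and Ppox in 23. With codes beginning 35 alone none of the 4 was past it, at 0.12, 0.12, 0.15 and 0.16. Of the 42 fits, 34 only left out 1 library. All reuse libraries by which the 4 genes were chosen, so these counts describe the processing and support nothing. Besides these 4, the higher genes were Eif2s3y (0.23), Firre (0.17), Snrnp70 (0.13) and Srsf5 (0.12). Firre is in the list of nuclear long noncoding RNAs, Snrnp70 encodes a protein of U1 and Srsf5 an SR protein. Eif2s3y is in none of the gene lists, and no shared function is read from these genes.

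No gene of the pathway lists was called between genotypes within a region. Of them, 13 of 15 nuclear speckle protein genes were above 0 in PFC (median 0.06), 12 in hippocampus (0.05) and 12 in striatum (0.10). Nuclear long noncoding RNAs were above 0 in 6, 6 and 9 of 9 (medians 0.09, 0.05 and 0.09). Other genes with retained introns were above 0 in 8, 11 and 13 of 14 (0.02, 0.03 and 0.07), and genes of U1 and its partners in 4, 5 and 5 of 6 (0.07, 0.07 and 0.12). Heme synthesis genes, the pathway of Ppox, were above 0 in 4, 6 and 3 of 8, and the ligase genes of Wsb1 in 2, 1 and 1 of 7. Of all genes, 48.7%, 49.4% and 48.4% were above 0 in PFC, hippocampus and striatum. The lists were chosen with earlier results of these data known, and Firre and Snrnp70, which they hold, were called in the average. Nothing is therefore read from these counts. Among cell types in striatum, 0 of 9 microglial and 0 of 7 meningeal markers and 1 of 10 striatal projection neuron markers were above 0 (medians -0.11, -0.23 and -0.15). Likewise 1 of 9 choroid plexus (-0.31), 1 of 8 cortical projection neuron (-0.15) and 1 of 9 endothelial and mural markers (-0.03) were, and 8 of 10 oligodendrocyte markers (0.07). In hippocampus 9 of 9 choroid plexus markers were above 0 (0.22), and in PFC 7 of 8 astrocyte markers were (0.03). The part of these cell types in the differences of the 10 genes was not tested.

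The third question was whether the 10 genes co-vary between libraries once region and genotype are taken out. Each gene's log2 values were centred in each of the 6 groups, and Pearson's r was taken over the 34 libraries for the 45 pairs. The mean r was 0.17, from -0.33 to 0.60; 37 of 45 pairs were above 0 and 3 above 0.5. Within PFC the mean was 0.26 (n = 11), within hippocampus 0.04 (n = 11) and within striatum 0.12 (n = 12). Without the 2 farthest libraries these were 0.19, 0.0079 and -0.001. Farthest means from the median of the first gene of each pair, in the order in which the 10 genes were listed. Leaving these out narrows the range of that gene, which can by itself lower r, so nothing is read from the drop. Among libraries whose codes begin with 35 the mean r was 0.11. As background, the median r of each gene with 13996 genes (mean of at least 50) ran from -0.03 (Wsb1) to 0.004 (Luc7l2). For Ppox, Clk1, Clk4 and Luc7l3, 3 of the other genes were in the top 5% of that ranking. For Wsb1 and Luc7l2, 0 were. Few pairs were strongly correlated, so the 10 genes did not vary as 1 block. These correlations carry no p, since the libraries share codes and scaling and the genes were proposed as co-varying.

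Clk1 and Clk4 were the closest pair, at r = 0.60 over 34 libraries (Spearman's rho 0.65; r 0.515 without the 2 libraries farthest from the Clk1 median). The hippocampal HT libraries show it directly: Clk1 stood at 4401, 4429, 4349, 3342 and 3897 and Clk4 at 2480, 2360, 2361, 2092 and 2296 in replicates 1 to 5. Replicate 4 was the lowest of the group for both. Within regions the pair was at 0.87 in hippocampus, 0.74 in PFC and 0.33 in striatum, the last 0.05 without the 2 farthest. Clk4 and Ccnl2 followed at 0.56 (rho 0.56; r 0.48 without the 2 farthest), though in hippocampus r went from 0.32 to -0.27 without them. Next came Ppox and Luc7l3 at 0.50 (rho 0.47; r 0.38). Among the 10 genes Rsrp1 was closest to Luc7l3, at 0.47 (rho 0.55; r 0.45). Each of Clk1 and Clk4 was among the 10 genes most like the other out of 13996 genes with a mean of at least 50, at rank 9 and 10.

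Leng8 and Rsrp1, named together in the label, were at r = 0.14. Leng8 was closest to Luc7l3, at 0.48 (rho 0.36; r 0.29 without the 2 farthest), with 0.75 in PFC, 0.24 in hippocampus and -0.14 in striatum. With the kinases Leng8 ran the other way: -0.33 with Clk1 and -0.19 with Clk4, and -0.70 with Clk4 in hippocampus (-0.41 without the 2 farthest). In PFC it was at -0.19 with Clk1 and 0.02 with Clk4. In PFC, Leng8 and Ppox were at 0.71, and HT replicate 2 had the lowest HT value of both (8938 and 680); without the 2 libraries farthest from the Leng8 median r was 0.34.

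**Figure D4:**
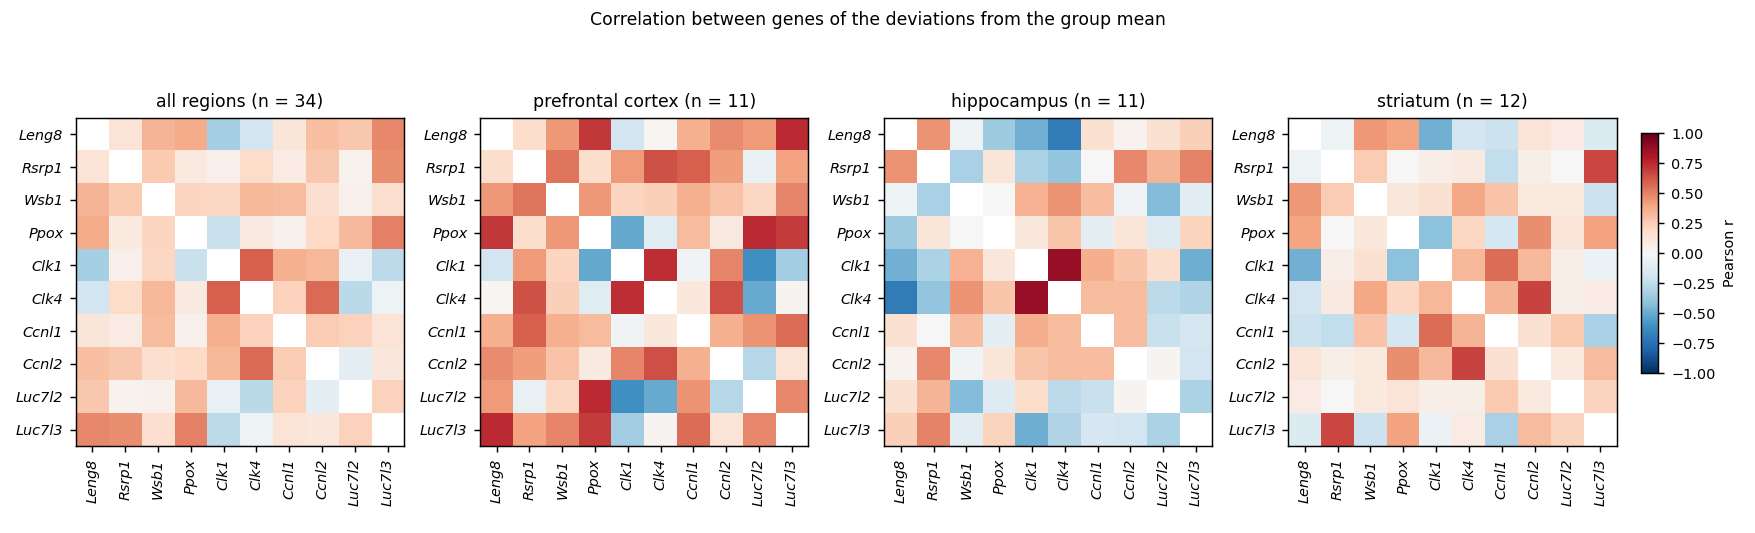
Pearson's r between the 10 genes after centring each gene in each group, over all libraries and within each region (colour scale from -1 to 1). Clk1 with Clk4 is dark red in PFC and hippocampus (0.74 and 0.87), Leng8 with Clk4 is blue in hippocampus (-0.70), and over all 34 libraries most squares are pale.

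The genes most like Leng8 were Nwd1 (r = 0.79), Guf1 (0.74), Kcnq1ot1 (0.72), Ubn2 (0.69), Nktr (0.69), Fyco1 (0.68), Tlr7 (0.67), Usp40 (0.66), Vav1 (0.66) and Snhg14 (0.66). Kcnq1ot1 and Snhg14 are long noncoding RNAs of imprinted regions, and Nktr is a cyclophilin with a region rich in serine and arginine. For Rsrp1 they were Yeats4 (0.62), Hspbp1 (0.60), Ric1 (0.58), 4933439C10Rik (0.57), Tomm7 (0.56), Gtf2a2 (0.56), Sst (0.56), Nbdy (0.56), Aifm1 (0.55) and Pet100 (0.55). These lists share 0 genes, and 0 of the 10 genes are in either. Within regions, Nwd1 was at 0.91, 0.67 and 0.50 with Leng8 in PFC, hippocampus and striatum, and Yeats4 at 0.46, 0.50 and 0.84 with Rsrp1. In the same order, r with Leng8 was 0.77, 0.75 and 0.55 for Kcnq1ot1. It was 0.85, 0.76 and 0.22 for Nktr and 0.85, 0.41 and 0.23 for Snhg14, so these 2 were weak in striatum.

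Leng8 correlated with several long noncoding RNAs known as nuclear and, with the opposite sign, with immediate early genes. Its median r was 0.44 with 9 nuclear long noncoding RNAs, of which 5 were above the 95th percentile of all genes (0.36), led by Kcnq1ot1 and Snhg11 (0.63). With 15 nuclear speckle genes the median was 0.31, 7 of them above that percentile, led by Nktr and Srrm1 (0.60). Srsf11 (0.65), Tia1 (0.63), Ogt (0.54), Prpf39 (0.44) and Snrnp70 (0.40) led their lists, which as a whole were lower (medians 0.07 for SR proteins, 0.15 for other genes with retained introns and 0.21 for U1). With 14 immediate early genes, which neurons switch on when active, the median was -0.50 for Leng8 but 0.41 for Clk1 and 0.24 for Clk4. By the median, Wsb1 ran against neuron markers (-0.53), though 3 of 8 were above 0, and against oligodendrocyte markers (-0.43, 0 of 10 above 0). It ran with blood cell markers (0.47, 5 of 5 above its 95th percentile). Most of the other genes also ran against oligodendrocyte markers, with 0 of 10 above 0 for each. Their medians were -0.38 for Clk4, -0.30 for Clk1, -0.29 for Rsrp1, -0.28 for Ccnl1, -0.24 for Luc7l3 and -0.17 for Ccnl2. For Leng8, Luc7l2 and Ppox the medians were -0.04, -0.01 and 0.075. Mitochondrially encoded genes were at a median of 0.31 with Leng8, with 11 of 13 above 0 and 6 above its 95th percentile. That is the same median as for the speckle genes, so the likeness of Leng8 was not limited to nuclear RNAs. Choroid plexus markers were also at 0.31 with Leng8 (7 of 9 above 0, 2 above that percentile). With Luc7l2 the mitochondrially encoded genes were at 0.37 (8 of 13 above 0). The mean of the 10 genes was at r = 0.67 with SR proteins, 0.65 with speckle genes and 0.60 with nuclear long noncoding RNAs, -0.43 with neuron markers, -0.44 with oligodendrocyte markers and -0.14 with the estimated reads. In PFC, hippocampus and striatum apart, r was 0.72, 0.56 and 0.66 with SR proteins, 0.79, 0.03 and 0.64 with speckle genes, and 0.92, -0.28 and 0.38 with the noncoding RNAs. With neuron markers it was -0.68, 0.32 and -0.58, so in hippocampus the sign was the opposite for these and for the noncoding RNAs. The part of cell makeup in the co-variation was not tested.

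**Figure D5:**
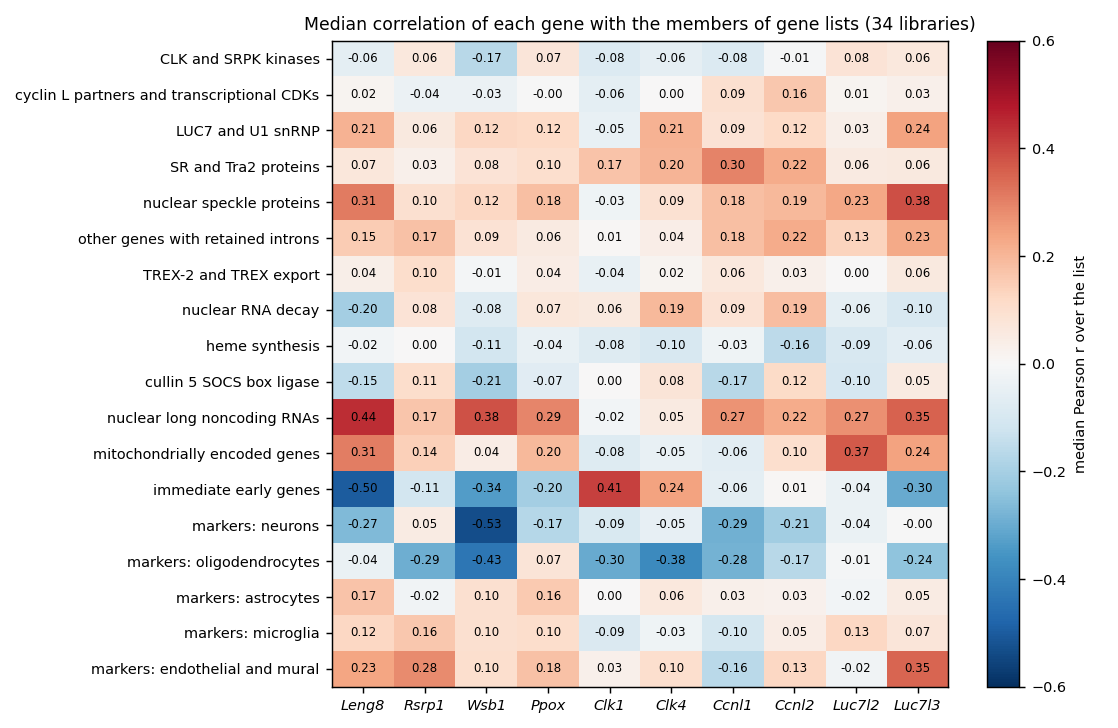
Median Pearson's r of each of the 10 genes (columns) with the members of each gene list (rows) over 34 libraries, after centring in each group; the number in each square is the median. Leng8 and Clk1 have opposite signs for immediate early genes (-0.50 and 0.41), and nuclear long noncoding RNAs are highest with Leng8 (0.44), Wsb1 (0.38) and Luc7l3 (0.35).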

How the data were processed

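Total RNA of 34 libraries was sequenced with a TruSeq RNA v2 kit, per the labels. The authors deposited 1 table of signal values per gene and library, called DESeq counts per the file name; the values are not whole numbers, and whole reads could not be obtained back. Salmon 1.1.0, R 3.6.2, DESeq2 1.26.0 and GRCm38 are named in the submitters' processing notes without a role. Identifiers were matched to GENCODE M21 (18533 of 18548). Genes with a mean of at least 10 were fitted as log2(value + 1) with limma 3.58.1 in R 4.3.3 (trend and robust options, 2-sided, Benjamini-Hochberg), tested on simulated data first; of genes changed by 0.5, 84%, 72% and 70% were recovered in the PFC, hippocampus and striatum genotype fits and 79% in the WT region fit, and of those changed by 1, 90%, 94%, 90% and 91%. Changes as small as the genotype differences of the 10 genes (0.01 to 0.28) were not simulated, so recovery at those sizes is not known. Region fits used all libraries of 1 genotype, genotype fits those of 1 region, and the average all 34 with 13 units of code and genotype as a random block (correlation 0.0445). The authors' scaling fixes the level between regions; no interval for counting error was computed, and precision is the spread between libraries.

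The genes and the gene lists were chosen with earlier results of these data known. The text names the 10 genes, the 10 genes most like Leng8 and the 10 most like Rsrp1 (Pearson's r, mean of at least 50), and from each list up to 3 genes with the largest difference among those called between WT regions and up to 2 with the highest r with Leng8; only some of these are printed. Srsf5, Firre and Eif2s3y were named after their values were seen. Alternatives were a pseudocount of 10, no filter, equal totals, no trend and robust option, leaving out libraries or codes, and replicate blocks. Same-numbered libraries of HT and WT correlated at a median r of 0.02 (-0.10 to 0.10, 16 pairs), so numbers were not taken to pair libraries. Correlations were computed in python 3.11.15 with scipy 1.17.1, and tables with pandas 2.3.3.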

Additional observations from a re-analysis of the deposited data

Results flagged for a closer look

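Of 60 groups (10 genes in 6 groups of 5 or 6 libraries), 3 held a library whose gap to the nearest other was large for the range of its group; chance flags about 1 group in 20. Ccnl1 was at 1330 in hippocampus WT replicate 2, where the median was 1548. In striatum HT, replicate 4 had the lowest value of both Luc7l2 (6012, median 6654) and Luc7l3 (5344, median 5737). Without hippocampus WT replicate 2 the HT minus WT difference of Ccnl1 in hippocampus went from 0.01 to -0.03 (log2).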

How the results depend on the processing

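Against 0 genes called between HT and WT in each region, libraries with codes beginning 35 alone gave 1 in PFC, 2 in hippocampus and 2 in striatum. Leaving out codes beginning 31 gave 6 in hippocampus and 1 in striatum, and leaving out code 31-67M, chosen after the data were seen, 4 in hippocampus. Equal totals gave 1 in hippocampus. Leaving out 1 library at a time gave 0 to 2 in PFC, 0 to 4 in hippocampus and 0 to 1 in striatum. The average over regions called 16 genes, 6 without the trend and robust options, 9 with codes 35 alone, 49 without codes 31, 54 without code 31-67M, and 5 to 29 without 1 library; the cause was not tested.

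The replicate number as a block, with numbers that do not pair the libraries, gave 1 gene in hippocampus; without the block of codes the average called 29. With the replicate block Ccnl2 in WT striatum against PFC stayed at 0.10 with limma adjusted p = 0.0741, and Ccnl1 in HT striatum against hippocampus, near 0, went to -0.0189.

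For region differences of the 10 genes, 695 of 750 alternative values in WT and 646 of 690 in HT kept direction and call. Signs turned in 8 and 19, of small differences. With equal totals, striatum against PFC turned to 0.053 for Luc7l3 in WT and, in HT, to 0.11 for Luc7l3 and 0.10 for Ppox. Striatum against hippocampus turned to 0.043 for Clk4 in WT, and in HT to 0.0525 for Clk4 and 0.021 for Rsrp1. With codes 35 alone, Leng8 in WT striatum against PFC was at -0.025, Ppox in HT hippocampus against PFC at -0.012, and Clk4 and Ccnl1 in HT striatum against hippocampus at 0.0398 and -0.038. Without 1 library, Leng8 in WT striatum against PFC ran from -0.0104 to 0.045, Clk4 in striatum against hippocampus from -0.031 to 0.0089 in WT and -0.037 to 0.024 in HT, and Ccnl1 in HT from -0.0189 to 0.020. The mean correlation of 0.169 ran from 0.145 to 0.184 without 1 library and was 0.220 with equal totals. For genotype, 577 of 580 alternative values were above 0.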
